A study of Mus musculus with 17 samples.

Results

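Transcript levels of 7 subunits of the GABA-A receptor were followed in mouse dorsal hippocampus: the alpha subunits Gabra2, Gabra3, Gabra4 and Gabra5, the beta subunits Gabrb1 and Gabrb2, and the delta subunit Gabrd. The members were taken by symbol from a table of read counts with 24498 gene symbols, and all 7 were found. RNA was sequenced from 17 libraries in 6 groups. Either the mice were wild type (WT) or Acss2 had been knocked out in the whole body (KO); its enzyme turns acetate into acetyl-CoA. At 6 months of age the right dorsal hippocampus received either phosphate-buffered saline (PBS) or an extract of tau from frontal cortex of people with Alzheimer's disease (Tau), and tissue was taken 6 months later. The groups were male WT PBS (libraries 791, 792 and 793), male WT Tau (771, 772 and 773), male KO PBS (751, 752 and 753), male KO Tau (711, 712 and 713), female WT Tau (331 and 341) and female KO Tau (314, 324 and 325). KO and WT mice were bred from homozygous crosses of F1 animals, the litter of each library was not given, and without a female PBS group the effect of Tau in females was not measured. Each library was labelled as a biological replicate of its group.

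GABA-A receptors are chloride channels opened by GABA, the main inhibitory transmitter of the adult brain, and are assembled from several subunits around a central pore. GABA binds where an alpha meets a beta subunit, and a gamma or the delta subunit usually completes the channel. In the hippocampus, alpha5 is abundant in pyramidal cells and serves largely outside synapses, alpha2 is found at synapses that include those on the axon initial segment, and alpha4 joins delta in receptors of dentate granule cells that carry tonic inhibition. Alpha3 is better known from neocortex and from monoaminergic nuclei.

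Of these genes, 3 lie in 1 cluster on chromosome 5 of the GRCm38 assembly: Gabra2 (70957597 to 71095849, minus strand), Gabra4 (71569749 to 71658308, minus strand) and Gabrb1 (71658113 to 72149037, plus strand). The gamma subunit gene Gabrg1 completes it, and the cluster spans 1398.5 kb in the RefSeq annotation. Gabra3 lies on chromosome X (72432681 to 72656848, minus strand), Gabra5 on chromosome 7 (57407672 to 57510059, minus strand), Gabrb2 on chromosome 11 (42419757 to 42629028, plus strand) and Gabrd on chromosome 4 (155384980 to 155398112, minus strand). Gabra4 and Gabrb1 start head to head and share 46 exon bases on opposite strands, which is 0.756% of the exon bases of Gabra4. Gabra5 shares 148 exon bases, 4.98% of its own, with the antisense gene Gm9962. The kit named for the libraries is not sold as a strand-marking one, although the reads were counted by strand, so reads from these stretches may belong to either gene.

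Windows of 300 bases around the start, 250 before it and 50 after it, were given by RefSeq (GRCm38.p6) for 6 of the 7 members, Gabrd not among them. Shown are Gabra2 and Gabra4, which were higher in female than in male Tau libraries, Gabra5, which varied with Gabra2 among libraries, and the downstream of 2 annotated starts of Gabrb1, whose level moved with both patterns. Each runs 5′ to 3′ on the strand of its gene, and capitals mark matches on either strand to CCAAT, to the GC box GGGCGG or to GTTGCC, a core of the site bound by RFX factors.
Gabra2, chr5:71095800-71096099, minus strand: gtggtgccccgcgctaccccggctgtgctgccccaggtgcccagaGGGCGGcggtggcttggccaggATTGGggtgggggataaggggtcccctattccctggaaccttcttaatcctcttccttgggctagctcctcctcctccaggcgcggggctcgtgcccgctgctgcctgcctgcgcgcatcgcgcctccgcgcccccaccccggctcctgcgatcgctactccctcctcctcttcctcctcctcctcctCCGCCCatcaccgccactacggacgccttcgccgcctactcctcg
Gabra4, chr5:71658259-71658558, minus strand: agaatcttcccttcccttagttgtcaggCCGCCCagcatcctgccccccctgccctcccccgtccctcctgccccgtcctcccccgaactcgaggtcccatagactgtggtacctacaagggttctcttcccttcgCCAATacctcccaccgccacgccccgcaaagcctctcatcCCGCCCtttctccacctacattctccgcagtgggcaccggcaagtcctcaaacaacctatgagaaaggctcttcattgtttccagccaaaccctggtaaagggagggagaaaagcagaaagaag
Gabra5, chr7:57510010-57510309, minus strand: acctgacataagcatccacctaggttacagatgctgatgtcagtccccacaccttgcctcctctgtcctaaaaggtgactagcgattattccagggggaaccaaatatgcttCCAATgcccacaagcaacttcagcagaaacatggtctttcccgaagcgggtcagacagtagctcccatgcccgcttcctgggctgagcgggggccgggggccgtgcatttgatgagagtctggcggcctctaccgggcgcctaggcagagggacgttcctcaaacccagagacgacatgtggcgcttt
Gabrb1, chr5:71699682-71699981, plus strand: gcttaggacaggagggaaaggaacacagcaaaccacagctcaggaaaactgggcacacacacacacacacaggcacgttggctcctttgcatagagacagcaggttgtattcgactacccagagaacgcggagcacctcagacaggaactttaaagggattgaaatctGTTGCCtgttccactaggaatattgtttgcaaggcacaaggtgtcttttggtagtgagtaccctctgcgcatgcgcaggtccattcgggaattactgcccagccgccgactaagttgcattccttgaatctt
The windows of Gabra2 and Gabra4 each held 1 CCAAT and 2 GC boxes, and their bases were 70% and 58.7% G or C, against a median of 52.7% over all windows. Gabra5 held 1 CCAAT, and the Gabrb1 window shown held 1 GTTGCC. Among all 32851 windows, 37.4% held CCAAT, 35.7% the GC box and 12.5% GTTGCC, so each match is common. The TATA box TATAAA (13.6% of windows), the E-box CACGTG (7.15%) and the CRE TGACGTCA (1.79%) were absent from these 4 windows. No printed match overlapped another. The upstream window of Gabrb1 lies within Gabra4 and held none of the 6 motifs.

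Total counts ran from 14183131 to 22463635 per library, and each member had between 301 and 6729 counts in every library, far over the 3 counts that a count of 0 allows. Acss2 stood at 44.0 to 54.6 CPM (counts-per-million) in WT and at 3.07 to 8.81 CPM in KO libraries, as their labels say. The markers of hippocampal fields CA1, CA2 and CA3 and of dentate granule cells were detected in every library. Some libraries stood apart from their groups. Male KO PBS library 752 had the highest sum over 8 neocortical markers (680.2 CPM) and over 8 striatal markers (654.5 CPM) of the 17 libraries, and the lowest sum over 12 dentate granule cell markers (320.2 CPM). Male KO Tau libraries 712 and 713 followed in the neocortical sum (602.2 and 525.7 CPM), whereas library 711 of the same group was lowest (201.0 CPM). In the other 13 libraries the neocortical sum ran from 203.9 to 397.7 CPM. No marker of these lists was at 0 in any library, and 1 of 9 neocortical markers was not analysed here. Library 713 also had the highest choroid plexus sum (4081 CPM, against 26.3 to 585.7 in the other 16). Library 711 had the highest astrocyte sum of the males (6499 CPM, against 3309 to 4149 in the others and 6804 to 7398 in females). Its inhibitory neuron sum was the lowest of the males (712.6 CPM, against 964.1 to 1395 in the others and 592.0 to 788.3 in females).

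Levels were compared between subunits per annotated exon length, in RPKM, which is CPM per kilobase of exon, since a longer transcript yields more reads. Gabra5 and Gabrb2 were the most abundant, at 50.1 ± 16.0 and 45.1 ± 6.52 RPKM (mean and SD, n = 17). Gabra3 followed at 24.8 ± 7.49, Gabra4 at 20.0 ± 4.12, Gabrd at 15.4 ± 7.13 and Gabra2 at 5.16 ± 1.15 RPKM. Gabrb1 was lowest at 1.96 ± 0.36 RPKM. Thus of the beta subunits measured here Gabrb2 exceeded Gabrb1 in 17 of 17 libraries, and of the alpha subunits Gabra5 exceeded Gabra2 in 17 of 17.

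**Figure D1:**
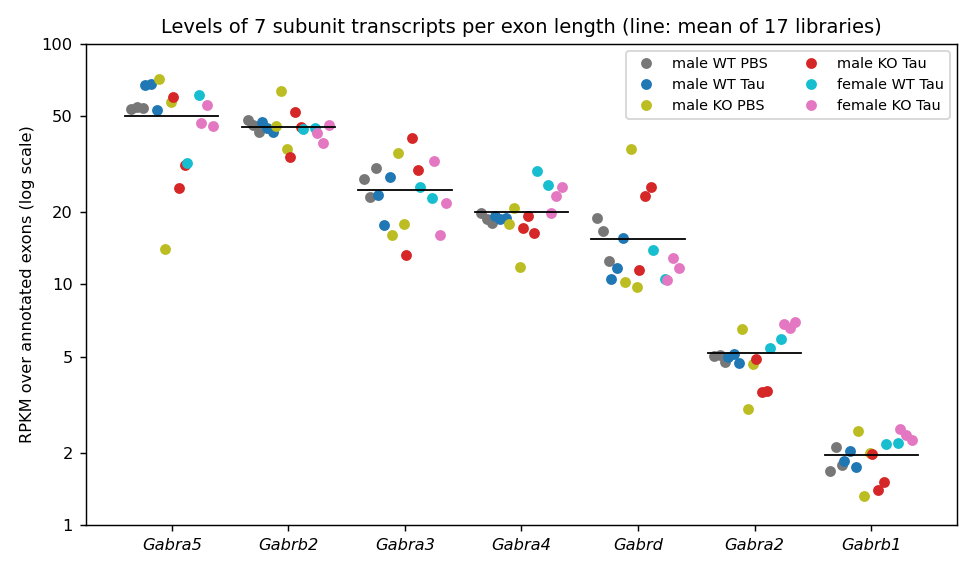
Level of each subunit transcript in RPKM (log scale) in 17 libraries, coloured by group, with the mean as a line. Gabra5 and Gabrb2 lead at means of 50.1 and 45.1 RPKM and Gabrb1 is lowest at 1.96 RPKM, and Gabra5 and Gabrd spread most.

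Neighbours in this order were compared within libraries by a permutation test of log2 ratios (sign flips over 17 libraries, two-sided, 100000 resamples, adjusted over 6 pairs). The order came from the same libraries, so the pairs were not chosen beforehand. The p-values measure scatter between libraries, not any error in exon length. Gabra5 and Gabrb2 did not pass (adjusted p = 0.744, permutation test), with a log2 ratio of 0.07 ± 0.76 (SD) and Gabra5 higher in 12 of 17 libraries. Gabrb2 exceeded Gabra3 by 1.88-fold in 17 of 17 libraries, Gabrd exceeded Gabra2 by 2.84-fold in 17 of 17, and Gabra2 exceeded Gabrb1 by 2.61-fold in 17 of 17 (adjusted p = 6.0e-05 for each, permutation test). Gabra4 exceeded Gabrd by 1.37-fold in 14 of 17 libraries (adjusted p = 0.0140, permutation test). Gabra3 exceeded Gabra4 by 1.21-fold in 10 of 17 libraries (adjusted p = 0.0479, permutation test), and this pair lost the test when any of 10 libraries was left out. With the longest coding transcript as the length, Gabrb2 stood above Gabra5 (71.9 against 55.8 RPKM) and Gabra4 above Gabra3 (29.7 against 26.6 RPKM), so the order within these pairs depended on the length used.

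The order varied with the group. Gabra5 led in male WT PBS (54.3 RPKM), male WT Tau (62.9), female WT Tau (46.6) and female KO Tau (49.4). Gabrb2 led in male KO PBS (48.7 against 47.6 RPKM for Gabra5) and in male KO Tau (43.8 against 38.8), but without library 752 Gabra5 led in KO PBS (64.4 against 41.1), and without library 712 it led in KO Tau (45.6 against 39.6). In female WT Tau the order rested on library 341, since in 331 Gabrb2 stood above Gabra5 (44.4 against 31.9 RPKM). Gabrd stood above Gabra4 in the mean of male KO PBS (18.8 against 16.8 RPKM) and of male KO Tau (20.1 against 17.6), and below it in the other 4 groups. Without library 752 Gabrd was below Gabra4 in KO PBS as well (10.0 against 14.9 RPKM), and without library 713 in KO Tau (17.4 against 18.3). Gabra4 stood above Gabra3 in the mean of female WT Tau (27.7 against 24.2 RPKM) and, without library 314, in that of female KO Tau (24.5 against 18.9). Differences between groups in the order were not tested, and 7 of 17 libraries had the order of the overall mean.

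Within males, the KO groups spread more widely than the WT groups for each member. The extrasynaptic alpha subunit Gabra5 was at 159.5, 163.2 and 161.7 CPM in WT PBS and at 200.8, 201.9 and 158.2 in WT Tau. It was at 213.0, 41.7 and 170.1 CPM in KO PBS (751, 752 and 753) and at 178.3, 74.6 and 92.9 in KO Tau (711, 712 and 713). The coefficient of variation was 1.13% in WT PBS and 13.3% in WT Tau, against 62.9% in KO PBS and 48.0% in KO Tau. In females it was the other way round, with 44.6% in WT Tau (n = 2) and 11.2% in KO Tau (n = 3). Library 752 was the lowest of all 17, followed by 712 and 713, and 711 and 751 lay within or above the WT range.

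Gabrd, the subunit of tonic receptors, showed the opposite arrangement. It was at 54.4, 48.0 and 35.9 CPM in WT PBS and at 30.4, 33.6 and 45.0 in WT Tau. The KO PBS libraries held 29.5, 104.8 and 28.0 CPM and the KO Tau libraries 33.1, 67.3 and 73.3. Libraries 752, 713 and 712 were the 3 highest of the 17, in that order.

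The alpha2 subunit Gabra2 was at 38.4, 38.9 and 36.5 CPM in WT PBS and at 38.2, 39.1 and 36.0 in WT Tau. It was at 49.8, 23.1 and 35.8 CPM in KO PBS and at 37.3, 27.2 and 27.4 in KO Tau, so that 752, 712 and 713 were again the 3 lowest. The beta subunit Gabrb1 had the same 3 lowest libraries and was at 23.1, 29.1 and 24.6 CPM in WT PBS, 25.4, 28.0 and 24.1 in WT Tau, 34.1, 18.2 and 27.5 in KO PBS and 27.3, 19.3 and 20.9 in KO Tau. For both subunits the KO groups overlapped the WT groups.

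Gabra3, the alpha subunit known from neocortex, was at 107.6, 90.5 and 120.2 CPM in WT PBS and at 92.2, 69.1 and 109.7 in WT Tau. It was at 63.0, 138.6 and 69.7 CPM in KO PBS and at 52.2, 158.8 and 117.5 in KO Tau, high where Gabra5 was low. The main beta subunit here, Gabrb2, was at 306.1, 292.9 and 273.5 CPM in WT PBS, 301.5, 284.6 and 273.0 in WT Tau, 290.9, 406.8 and 231.7 in KO PBS and 215.7, 331.9 and 287.6 in KO Tau. Gabra4, the partner of delta, had the smallest SE in the male fit: it held 120.0, 113.7 and 109.4 CPM in WT PBS, 116.7, 114.0 and 115.0 in WT Tau, 109.0, 126.0 and 71.9 in KO PBS, and 104.5, 117.6 and 99.1 in KO Tau. The low Gabra4 library was 753, not 752.

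**Figure D2:**
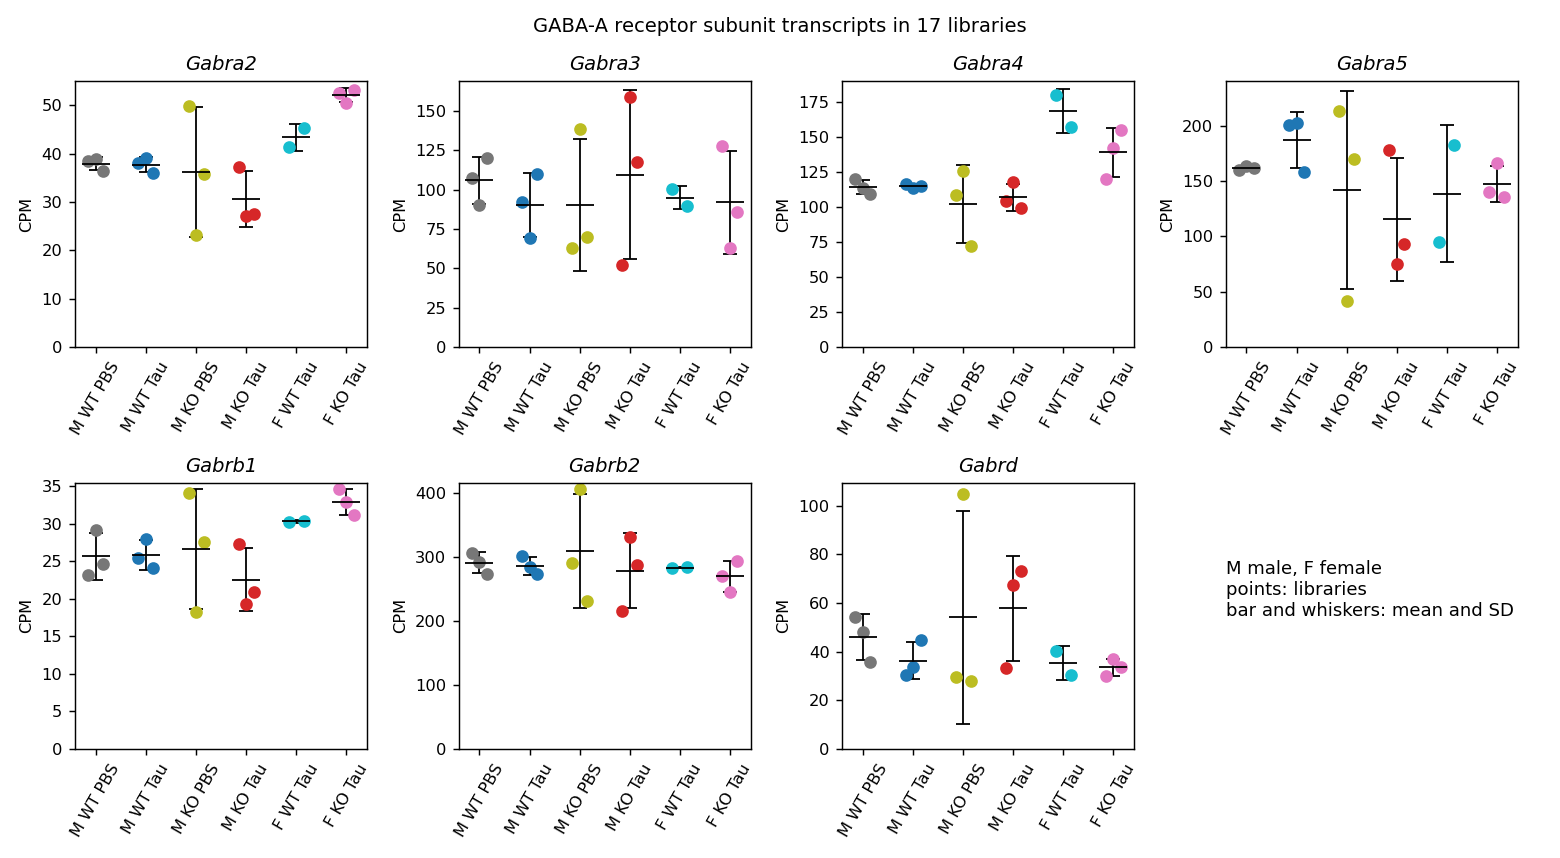
CPM of each subunit transcript by group; points are libraries, and the bar and whiskers are the mean and SD of the group. The KO PBS and KO Tau groups spread widely for Gabra5 (41.7 to 213.0 and 74.6 to 178.3 CPM) and Gabrd (28.0 to 104.8 and 33.1 to 73.3 CPM), and the 5 female libraries lie above the male Tau libraries for Gabra2, Gabra4 and Gabrb1.

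The design asks whether Tau, loss of Acss2 or both together change these levels. All 7 members passed the filter on low counts and were tested with edgeR's quasi-likelihood test (12 male libraries in 1 fit, false discovery rate (FDR) over 15098 genes, calls at 0.05). Tau against PBS in WT males gave 0 of 7 members called, where 0% of all genes tested were called. KO PBS against WT PBS, KO Tau against WT PBS and KO Tau against WT Tau each gave 0 of 7, where 0.00662% of all genes were called (1 gene). KO Tau against KO PBS and the genotype by treatment interaction gave 0 of 7 with 0% of all genes called. Averaged over genotype, Tau against PBS gave 0 of 7 (0% of all genes), and averaged over treatment, KO against WT gave 0 of 7 (0.00662%). DESeq2 and limma-voom with quality weights on the same libraries also called 0 of 7 in each of these 8 comparisons. With edgeR and with DESeq2 0 of 7 members had an unadjusted p under 0.05 in any of them. With limma-voom 3 of 7 did in KO Tau against WT PBS, in KO Tau against WT Tau, in KO Tau against KO PBS and in the interaction, as did 1 of 7 for Tau averaged over genotype and 2 of 7 for KO averaged over treatment.

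In CPM, 0 of 7 members had groups that did not overlap in any of the 5 male pairs. For Tau against PBS in WT males, 6.83% of all genes were higher and 5.35% lower in every Tau library. For KO PBS against WT PBS these shares were 2.39% and 9.27%, and for KO Tau against WT PBS 6.32% and 7.97%. KO Tau against WT Tau gave 3.87% and 8.64%, and KO Tau against KO PBS 6.23% and 2.84%.

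The widest differences in males were between KO Tau and WT Tau. Gabra5 had a log2 difference of -0.67 (SE 0.47, 95% interval -1.69 to 0.35, edgeR FDR = 0.927) and Gabrd of 0.69 (SE 0.46, -0.33 to 1.71, FDR = 0.927). Gabra3 stood at 0.30 (SE 0.37) and Gabra2 at -0.28 (SE 0.22), while Gabra4 (-0.08), Gabrb1 (-0.18) and Gabrb2 (-0.02) lay nearer 0. For Gabra4 the interval was -0.45 to 0.28, and changes of a size within these intervals could not be detected at this spread. The median over the 7 members was -0.08, beside 0.01 over all genes tested.

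**Figure D3:**
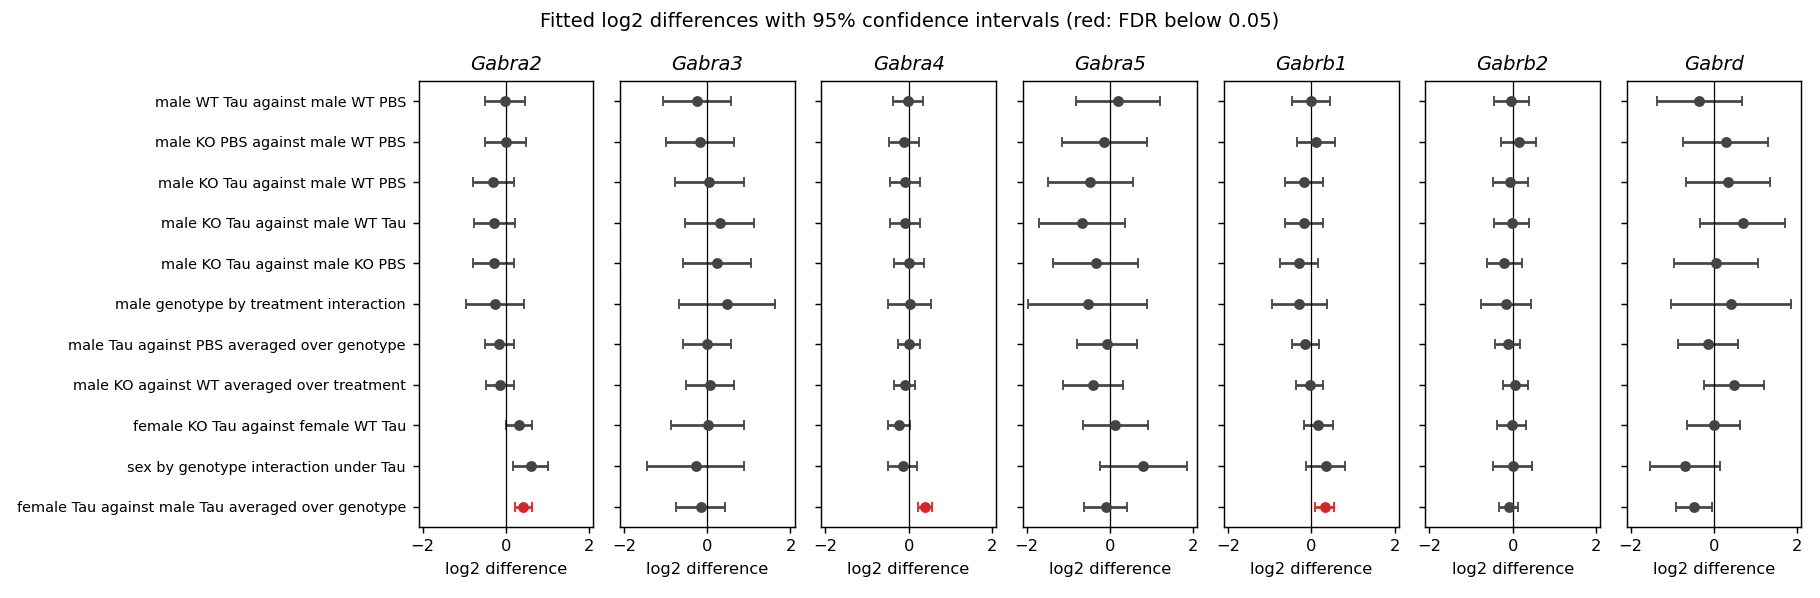
Log2 difference of each subunit in 11 comparisons (points) with its 95% confidence interval (bars), from edgeR fits of the 12 male or the 11 Tau libraries; red marks an FDR below 0.05. Intervals of Gabra5, Gabrd and Gabra3 are wide in males, and only female against male Tau passes, for Gabra2, Gabra4 and Gabrb1.

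Each pair of groups was also fitted alone, an alternative added after the data were seen. In male pairs, leaving out library 711, 752 or 773 changed the number of members called in some comparisons. Leaving out any other library of a male pair gave no member called. The study's own comparisons used fewer KO Tau libraries than are labelled, without naming the one left out. Without KO Tau library 711, KO Tau against WT Tau gave 3 of 7 members with edgeR, where 4.88% of all genes were called: Gabra5 (log2 difference -1.14, FDR = 0.0163), Gabrd (0.97, FDR = 0.0231) and Gabra2 (-0.45, FDR = 0.0326). DESeq2 added Gabra3 (0.63, FDR = 0.0196), with 7.13% of all genes called. KO Tau against WT PBS without 711 gave Gabra5 (-0.94, FDR = 0.00727) and Gabra2 (-0.47, FDR = 0.0248) with edgeR, where 4.15% of all genes were called, and Gabrd as well with DESeq2 (0.61, FDR = 0.00573; 5.33% of genes). These 2 remaining KO Tau libraries are those with the high neocortical sums, and the part of that in the result was not tested. In bulk tissue, fewer cells of a type and less RNA per cell cannot be told apart.

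KO PBS against WT PBS without library 752 gave 0 of 7 with edgeR and 2 of 7 with DESeq2, where 1.15% of all genes were called. Gabrd then stood at -0.63 (FDR = 0.0376), against 0.28 (SE 0.46) with all libraries, and Gabra3 at -0.62 (FDR = 0.00159) against -0.18 (SE 0.37). The direction of Gabrd in this comparison thus depended on 1 library. Tau against PBS in WT males without library 773 gave 0 of 7 with edgeR and, with DESeq2, Gabra5 (0.31, FDR = 0.00167) and Gabrd (-0.53, FDR = 0.0482), where 1.43% of all genes were called. Libraries 771 and 772 held the higher Gabra5 and 773 the highest neocortical sum of that group (397.7 CPM, against 262.6 and 287.5). Whether that sum has a part in the result was not tested.

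Whether subunits vary together was asked of the deviations of each library from its group mean, so that group differences do not enter. Over 17 libraries and 21 pairs, 4 pairs passed a permutation test within groups (two-sided, 100000 resamples, Benjamini-Hochberg adjusted over the pairs). Gabra2 and Gabrb1 had Pearson's r = 0.93 (adjusted p = 0.00819, permutation) and Spearman's rho = 0.88 (adjusted p = 0.0111). Gabra5 and Gabrb1 had r = 0.87 (adjusted p = 0.00829, permutation) and rho = 0.82 (adjusted p = 0.0164).

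Gabra2 and Gabra5 had r = 0.92 (adjusted p = 0.0243, permutation) and rho = 0.87 (adjusted p = 0.0355). Gabra3 and Gabra5 ran against each other, with r = -0.76 (adjusted p = 0.0317, permutation) and rho = -0.84 (adjusted p = 0.0168). Gabra5 and Gabrd had r = -0.90 and did not pass (adjusted p = 0.0904, permutation). Thus Gabra5, Gabra2 and Gabrb1 rose and fell together between libraries of the same group, and Gabra3 went the other way from Gabra5.

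Without the 2 libraries farthest from the median on the first axis, KO PBS 751 and 752, r was 0.84 for Gabra2 and Gabrb1 (adjusted p = 0.0424, permutation) and 0.71 for Gabra5 and Gabrb1 (adjusted p = 0.0424). For Gabra2 and Gabra5 r was 0.89 without them (adjusted p = 0.134, permutation). For Gabra3 and Gabra5, without 752 and KO Tau 711, r fell to -0.37 (adjusted p = 0.372, permutation), so that relation rests on those libraries. Without library 752 alone, the first 2 pairs kept the test and the other 2 did not. Within the 12 male libraries all 4 pairs passed, with r of 0.95, 0.92, 0.95 and -0.87 (adjusted p of 0.0144, 0.00840, 0.0144 and 0.0144, permutation), and Gabra2 and Gabra3 (r = -0.81, adjusted p = 0.00840, permutation) and Gabra3 and Gabrb1 (r = -0.87, adjusted p = 0.0144, permutation) passed as well. The 5 female libraries are too few for a value of their own.

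**Figure D4:**
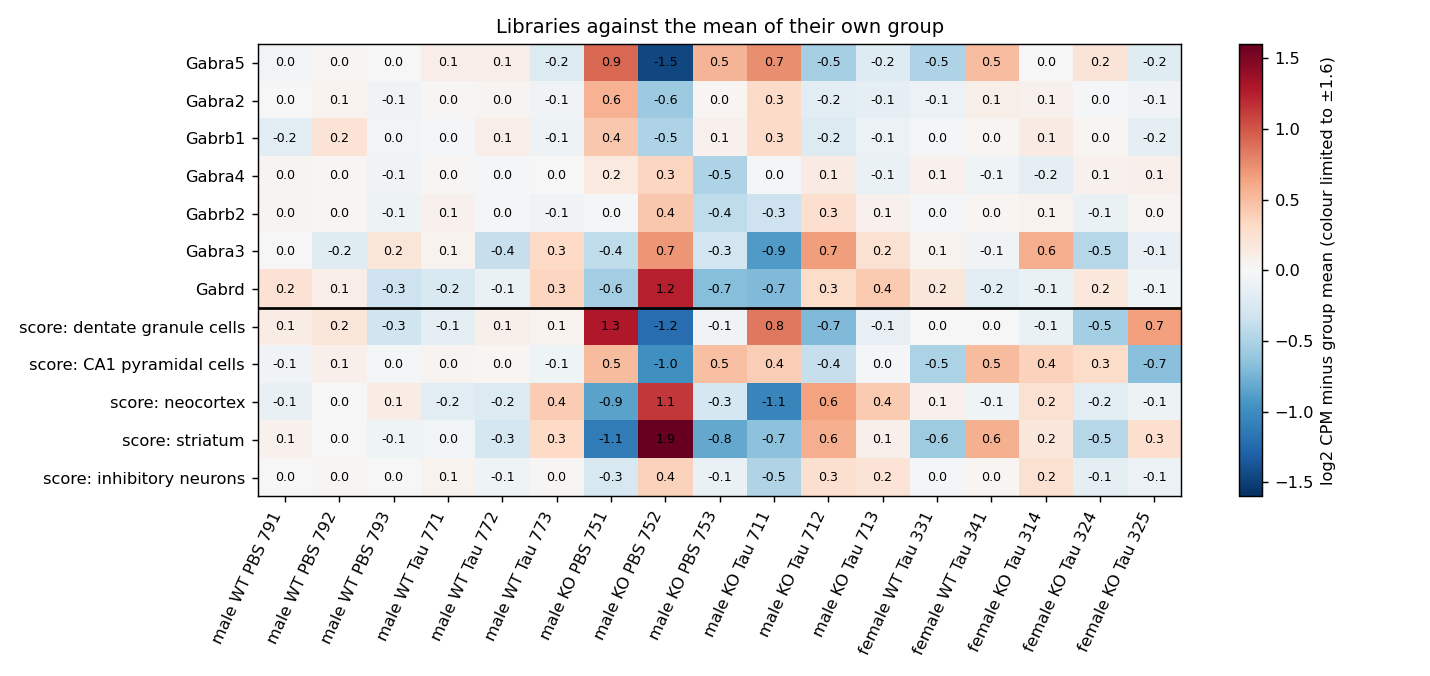
Deviation of each library from the mean of its group, in log2 CPM, for the 7 subunits (above the line) and for the mean of 5 marker lists (below it). In KO PBS library 752 Gabra5 lies at -1.46 and Gabrd at 1.24 from the group mean, and the neocortical score at 1.13.

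Dentate granule cells are a main cell type of the slice, and each member was set against the mean log2 level of 12 of their markers, again as deviations from group means. Over 17 libraries 0 of 7 members passed the adjusted permutation test, and unadjusted 1 of 7 was under 0.05. Gabra2 had r = 0.87 (adjusted p = 0.164, permutation) with rho = 0.62, Gabrb1 r = 0.76 and Gabra5 r = 0.73, while Gabrd had r = -0.69 and Gabra3 r = -0.67 (adjusted p of 0.164 to 0.245, permutation). Within the 12 male libraries Gabra2 (r = 0.96, adjusted p = 0.0256, permutation), Gabra3 (r = -0.83, adjusted p = 0.0256) and Gabrb1 (r = 0.92, adjusted p = 0.0491) passed. Without libraries 751 and 752, r for Gabra2 was 0.63 (adjusted p = 0.516, permutation), so the relation rests on them. For Gabra4, which joins delta in granule cells, r was -0.14.

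The female Tau libraries differed from the male Tau libraries in 3 members. Gabra2, Gabra4 and Gabrb1 were higher in females in the fit of the 11 Tau libraries, and 3 of 7 called stands beside 23.8% of all 15419 genes tested (11.4% higher and 12.4% lower in females). Since female and male libraries may also differ in handling, sex and any batch of the female libraries cannot be told apart.

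Gabra4 was at 179.9 and 157.3 CPM in female WT Tau and at 120.0, 142.5 and 155.0 in female KO Tau, against 99.1 to 117.6 CPM in the 6 male Tau libraries (median 114.5). Every female library lay above every male Tau library, and the log2 difference was 0.40 (SE 0.08, edgeR FDR = 0.00954), or 1.32-fold. Gabra2 was at 41.4 and 45.3 CPM in female WT Tau and at 52.5, 50.5 and 53.2 in female KO Tau, against 27.2 to 39.1 in male Tau (median 36.6). The groups did not overlap, and the log2 difference was 0.42 (SE 0.10, FDR = 0.0145), or 1.34-fold. Gabrb1 was at 30.2 and 30.4 CPM in female WT Tau and at 34.6, 32.9 and 31.1 in female KO Tau, against 19.3 to 28.0 in male Tau (median 24.8). These ranges did not overlap either, and the log2 difference was 0.32 (SE 0.10, FDR = 0.0448), or 1.25-fold. Of all genes, 6.7% had every female Tau library above every male Tau library and 3.73% below. Set against all 12 male libraries, PBS included, the female range overlapped the male range for each of the 3.

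The other members did not pass. Gabrd was at 30.0 to 40.1 CPM in female Tau and 30.4 to 73.3 in male Tau, with a log2 difference of -0.49 (SE 0.19, FDR = 0.0881). It was called lower in females by limma-voom (-0.58, FDR = 0.0158) and by edgeR without KO Tau library 711 (-0.60, FDR = 0.00360). Gabra3 stood at -0.15 (SE 0.27, FDR = 0.697), Gabra5 at -0.10 (SE 0.24, FDR = 0.779) and Gabrb2 at -0.10 (SE 0.11, FDR = 0.529). Female Gabra5 ran from 94.9 CPM (331) to 182.2 (341) in the WT Tau group alone. Female Gabrb2 kept to 245.6 to 293.4 CPM.

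The 3 called members are the 3 that lie in the chromosome 5 cluster, a description of their position and not a test of it. The remaining gene of the cluster, Gabrg1, a gamma subunit, was at 68.8 and 37.8 CPM in female WT Tau and at 42.9, 32.1 and 62.6 in female KO Tau. It was at 20.2 to 30.0 CPM in male Tau and at 19.8 to 30.0 over all 12 males. Each female library lay above each male one, and against male Tau the log2 difference was 0.88 (SE 0.18, edgeR FDR = 0.0103). Of all genes, 5.39% had every female above every male library and 2.7% below, and 0 of 7 members did either.

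**Figure D5:**
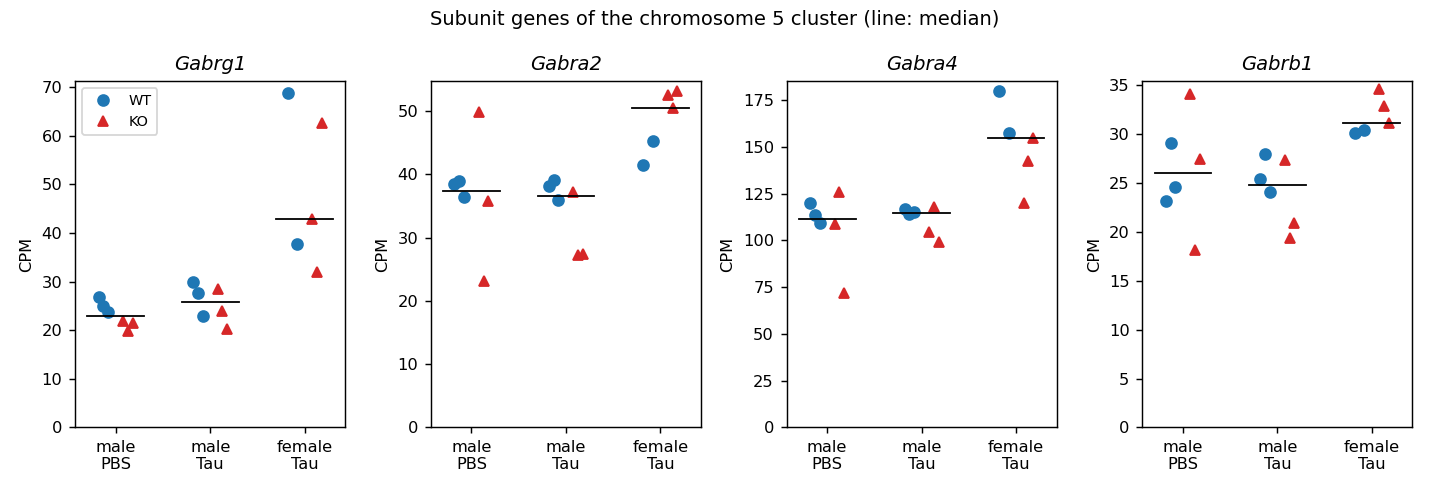
CPM of the 4 subunit genes of the chromosome 5 cluster in male PBS, male Tau and female Tau libraries; circles are WT, triangles KO, and lines medians. All 5 female libraries lie above the male Tau libraries for each gene, and for Gabrg1 above all 12 males.

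Markers of other cells were also called in this comparison, beside 11.4% of all genes called higher and 12.4% called lower in females. The sum over 6 astrocyte markers was 6804 to 7398 CPM in female Tau and 3309 to 6499 in male Tau, the highest male value being library 711, and 3 of 6 markers were called higher. Of 9 thalamic markers 3 were called higher (169.4 to 635.2 CPM in female, 155.8 to 283.5 in male Tau), and of 11 markers of inhibitory neurons 6 were called lower (592.0 to 788.3 against 712.6 to 1180 CPM). Of 8 markers of CA1 pyramidal cells 3 were called lower (719.8 to 1295 against 1293 to 1502 CPM), of 5 endothelial markers 3 higher (178.1 to 252.4 against 129.2 to 190.3 CPM) and of 8 neocortical markers 2 lower (203.9 to 328.8 against 201.0 to 602.2 CPM). Of 12 dentate granule cell markers 0 were called. The sum over 6 microglia markers was 419.4 to 481.4 CPM in female and 344.1 to 467.5 in male Tau. For 6 oligodendrocyte markers it was 4450 to 11340 against 3202 to 7083 CPM. No marker of these lists was at 0. Their part in the subunit differences was not tested.

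Gabra2 was called under all 16 alternatives (log2 0.37 to 0.52) and Gabra4 under 15 of 16 (0.36 to 0.45), lost without female WT Tau library 331 (FDR = 0.0523). Gabrb1 was called under 6 of 16 (0.29 to 0.43). Its call was lost when all 17 libraries were fitted together (FDR = 0.0995) and without any of libraries 771, 772, 773, 712, 713, 331, 341, 314 or 324.

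Between KO and WT under Tau, females gave 0 of 7 members called by edgeR (0.00649% of all genes called), and 0 of 7 by DESeq2 or limma-voom. Under an unadjusted p of 0.05 were 0 of 7 by edgeR and DESeq2 and 1 of 7 by limma-voom. Gabra2 stood at 0.31 (SE 0.14, 95% interval -0.00 to 0.63, edgeR FDR = 0.997). Gabra2 and Gabrb1 were higher in each KO than in each WT library, 2 of 7 members beside 5.73% of all genes. Gabra4 stood at -0.23 (SE 0.12, FDR = 0.997), with each KO library below each WT library, 1 of 7 members beside 10.3% of all genes. Gabrb1 stood at 0.17 (SE 0.16), Gabra5 at 0.13 (SE 0.35), Gabra3 at 0.01, Gabrb2 at -0.02 and Gabrd at -0.01.

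The interaction of sex with genotype, within Tau, gave 0 of 7 by edgeR (0% of all genes), by DESeq2 and by limma-voom. An unadjusted p under 0.05 was reached by 1 of 7 with DESeq2, by 4 of 7 with limma-voom and with edgeR by 1 of 7: Gabra2, at 0.59 (SE 0.19, 95% interval 0.17 to 1.02, FDR = 0.978). Its genotype difference was -0.28 in males and 0.31 in females, and the test of the interaction did not pass after adjustment.

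Over all 6 groups together, edgeR called 0 of 7 members, where 19% of all 15594 genes tested were called, and 1 of 7 had an unadjusted p under 0.05. That was Gabra4 (FDR = 0.102), with 0.57 on the log2 scale between its highest and lowest group. Gabra2 followed (0.71 between groups, FDR = 0.169). The widest span was that of Gabrd (0.84, FDR = 0.381). DESeq2 called Gabra4 (FDR = 0.0413; 22% of all genes), and limma-voom, which weighs down libraries that scatter, called Gabra2, Gabra4, Gabra5, Gabrb1 and Gabrd (45.6% of all genes). Without KO PBS library 752, edgeR called Gabra2 and Gabra4, without 751 Gabra2 and without 753 Gabra4.

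Genes that work with these subunits were counted from fixed lists. In the 10 comparisons within males, of female genotype and of the sex by genotype interaction, edgeR called 0 genes of the lists of GABA synthesis and transport (8 genes), receptor anchoring and assembly (12), chloride cotransporters (2), GABA-B receptors (5) and other GABA-A subunits (12 in the table, 7 of them tested). Over these 340 tests 15 had an unadjusted p under 0.05. DESeq2 and limma-voom also called 0, with 17 of 380 and 48 of 340 tests under an unadjusted p of 0.05. In female against male Tau, 3 of 8 genes of GABA synthesis and transport were higher and 2 lower. The higher ones were Abat (0.47, SE 0.10, FDR = 0.0105) and Aldh5a1 (0.34, SE 0.09, FDR = 0.0200), which break GABA down, and the glial transporter Slc6a11 (0.84, SE 0.21, FDR = 0.0192). The lower ones were Gad1, which makes GABA (-0.63, SE 0.15, FDR = 0.0163), and the vesicular transporter Slc32a1 (-0.79, SE 0.19, FDR = 0.0173). Both also belong to the inhibitory neuron markers counted above, so they are not separate observations.

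Of 12 anchoring and assembly genes 2 were higher (Iqsec3 and Rdx, the latter an anchor of alpha5 receptors outside synapses) and 4 lower (Clptm1, Gphn, Lhfpl4 and Nlgn2). Gphn, the scaffold gephyrin, stood at -0.32 (SE 0.08) and the adhesion protein gene Nlgn2 at -0.64 (SE 0.13). Slc12a5, the transporter that keeps neuronal chloride low, stood at -0.52 (SE 0.13, FDR = 0.0200), and of 5 GABA-B genes 0 were called, with 2 of 5 under an unadjusted p of 0.05 (1 called by DESeq2 and 3 by limma-voom). Medians over the lists were -0.05 for synthesis and transport and -0.15 for anchoring, beside -0.01 over all genes. The background is again 23.8%, and the counts called were 5 of 8 for synthesis and transport, 6 of 12 for anchoring and assembly, 1 of 2 for chloride cotransporters, 0 of 5 for GABA-B receptors and 1 of 7, Gabrg1, for other GABA-A subunits.

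The genes whose pattern over the 17 libraries was most like each member were taken from 11685 genes by Pearson's r of log2 CPM, as a description. Libraries share depth and tissue make-up, and r was chosen as the highest of many. For Gabra5 they were St6galnac5 (r = 0.973), Rasd1 (0.971) and Ust (0.970). For Gabra3 they were Vip (0.937), a peptide of interneurons, Dpp10 (0.930) and Hdgfrp3 (0.925). Gabra2 was most like Dock11 (0.948), Slc4a7 (0.936) and Nkain3 (0.918), and Gabrb2 most like Slc2a13 (0.934), Fgf14 (0.920) and Tlk2 (0.918). Gabrb1 was most like Cyfip1 (0.913), Gabrd like Mb21d2 (0.910) and Gabra4 like Fyttd1 (0.897). Deviations from group means gave r of 0.997 for Gabra5 and Ust and 0.843 for Gabra4 and Fyttd1.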

How the data were processed

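Poly(A) RNA of 1 mm slices of dorsal hippocampus was sequenced. Per the labels the mice were perfused with paraformaldehyde before RNA extraction, a step that the study's methods give for histology. Per the labels and the study's methods, the authors aligned reads with STAR 2.5.2 to GRCm38 (mm10) and counted them over exons by gene with HTSeq 0.9.1 in reverse-stranded mode; the annotation release was not given in the sources used here. The deposited values are raw counts per gene symbol and library, with no normalization, and all count columns were mapped to libraries by their labels. The authors' own test was DESeq2 on male libraries, with 2 KO Tau libraries where 3 are labelled; the one left out is not named, and all 3 were used here.

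Counts were tested with edgeR 4.0.16 in R 4.3.3 (TMM factors, filterByExpr with a minimum count of 10 and total of 15, glmQLFit and glmQLFTest, Benjamini-Hochberg over all genes tested, FDR 0.05). Male comparisons came from 1 fit of 12 libraries, those with females from 1 fit of the 11 Tau libraries, and the 6-group test from all 17. DESeq2 1.42.0, limma 3.58.1 (voom with quality weights), RLE factors, no filter and leaving out libraries were alternatives. SE was taken as the log2 difference over the root of F. CPM used total counts; RPKM used the union of exons of GENCODE M21 (GRCm38). Correlations used log2 CPM with TMM factors and a prior count of 2. P-values measure the spread between libraries. No 2 libraries held identical counts (0 of 136 pairs). The members and gene lists were chosen with earlier results of these data known; the named genes were all members, the list genes beside their counts and the 3 most alike genes per member with a mean of at least 5 CPM.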

Additional observations from a re-analysis of the deposited data

How the results depend on the processing

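Over 2009 member values recomputed under alternatives, 27 passed the threshold that had not, 11 no longer did, and 1 called value had the opposite sign; 195 uncalled values changed sign, none with a main size over 0.34 on the log2 scale. The number of members called in KO Tau against WT Tau was 3 (edgeR) and 4 (DESeq2) when the pair was fitted alone without 711, in KO Tau against WT PBS 2 and 3, in KO PBS against WT PBS 2 (DESeq2 without 752) and in WT Tau against WT PBS 2 (DESeq2 without 773); these fits were chosen after seeing the data. Gabrd in KO PBS against WT PBS was then -0.63. In female against male Tau the number called ran from 1 to 4 as each library was left out, and over the 6 groups from 0 to 2, with 1 under DESeq2 and 5 under limma-voom. The log2 ratio of Gabra5 to Gabrb2 was -0.45, and of Gabra3 to Gabra4 -0.19, with the longest coding transcript as length, by the construction of that length. Members passing against the granule cell score numbered 3 in males and 1 with CPM on total counts in place of TMM; pairs passing numbered 2 without the 2 farthest libraries and 2 without 752 (chosen after seeing the data). The cause was not tested. Where leaving out a library left 1 in a group, its spread was assumed to equal that of the remaining groups. No paired analysis was possible because the groups share no replicate numbers.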

Other observations

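Among the subunits that are not members, Gabra6, the alpha subunit of cerebellar granule cells, had 672 counts (36.8 CPM) in male WT PBS library 791 and at most 15 counts in each of the other 16 libraries. In that library 5 genes had at least 100 counts and at least 10 times the count of every other library: Gabra6, Fat2 (837 counts against at most 21), Cnpy1 (428 against 11), Cbln3 (1510 against 43) and Ppp1r17 (243 against 9). Among the members, Gabrd stood at 54.4 CPM in library 791, against 48.0 and 35.9 in the other WT PBS libraries. Gabrb2 stood at 306.1 CPM, against 292.9 and 273.5, and Gabra4 at 120.0 CPM, against 113.7 and 109.4. Gabra5 was the lowest of its group there, at 159.5 CPM against 163.2 and 161.7, as was Gabrb1, at 23.1 against 29.1 and 24.6. Gabra2 and Gabra3 lay between the other WT PBS libraries. Whether the signal of library 791 has a part in these levels was not tested. Gabrg3 was low but present in every library (38 to 75 counts), and Gabrp (0 to 1 counts) and Gabrr3 (0 to 3 counts) did not exceed 3 counts in any library.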
